A study of Mus musculus with 12 samples.

Results

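The transcription factors that specify and build the embryonic heart were measured in whole mouse embryos labelled null for Tgif1 and Tgif2 and in wild-type embryos. The set consists of 10 genes named for their textbook roles, Nkx2-5, Gata4, Gata5, Gata6, Tbx5, Tbx20, Hand1, Hand2, Mef2c and Isl1, found by symbol among the 23284 genes of the count table, and all 10 had enough counts to be tested. The tested embryos were 8 with CDKO in their titles, which the labels give as null for both genes and the series text as conditional double mutants; the other 4 were wild type (WT). All 12 were single whole embryos of a C57BL/6 x 129Sv background at 9.0 days after fertilization, about 9 to 10 somites, and the sources used here name neither the Cre driver nor the deleted exons and litters. Polyadenylated RNA was sequenced to 16802367 to 21346245 counts per CDKO-labelled embryo and 17296017 to 20080786 counts per WT embryo.

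TGIF1 and TGIF2 are homeodomain repressors that restrain TGF-beta and Nodal signalling. The heart forms from mesoderm of the first heart field, the source of the early tube and left ventricle, and of the second heart field, which adds the outflow tract and right ventricle. NKX2-5, the GATA factors, TBX5, the HAND factors and MEF2C bind cardiac enhancers together and switch on contractile protein genes, while ISL1 marks second heart field progenitors that have not yet differentiated. None of the 10 is restricted to the heart, so a whole embryo also reports their expression in endoderm, limb and body wall mesoderm, pharyngeal arches, neurons and extraembryonic tissue.

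Promoter sequences from RefSeq (GRCm38.p6) were at hand for 6 of the 10 genes, in 8 windows of 250 bases before to 50 bases after a transcription start. The windows were searched on both strands for TGTCA, the core bound by TGIF proteins, which 45.4% of all 32851 promoter windows held. They were also searched for the GATA factor motif AGATAA, held by 11.2% of all windows. The motif searched for NKX2-5 was CAAGTG, held by 13.6%. For T-box factors it was GGTGTG, held by 19.0%, and no matches overlapped in the windows of the 6 genes. A TGTCA match lay in 2 of the 8 windows, one of Nkx2-5 and one of Mef2c, while GATA, NKX2-5 and T-box matches lay in 2, 2 and 1. The 250 bases before the start are shown for 3 genes: Nkx2-5, whose only match is the TGIF core, Hand2, which holds an NKX2-5 and a GATA match, and Isl1, the member with the smallest difference between the groups, whose only match, a GATA one, lies after the start. Capitals mark the matches. The sequences are written 5′ to 3′ on the strand of the gene, from chr17:26841566-26841815 (minus strand) for Nkx2-5, chr8:57320733-57320982 (plus strand) for Hand2 and chr13:116309689-116309938 (minus strand) for Isl1.
Nkx2-5: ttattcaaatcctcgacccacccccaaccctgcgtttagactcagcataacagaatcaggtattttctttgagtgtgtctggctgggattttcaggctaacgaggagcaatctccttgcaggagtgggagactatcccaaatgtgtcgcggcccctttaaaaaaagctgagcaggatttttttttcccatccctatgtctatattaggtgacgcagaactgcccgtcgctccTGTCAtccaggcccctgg
Hand2: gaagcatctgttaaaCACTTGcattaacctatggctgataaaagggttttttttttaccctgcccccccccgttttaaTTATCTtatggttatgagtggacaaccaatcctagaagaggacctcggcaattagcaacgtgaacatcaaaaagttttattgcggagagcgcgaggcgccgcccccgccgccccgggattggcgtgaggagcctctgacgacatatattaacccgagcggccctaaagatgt
Isl1: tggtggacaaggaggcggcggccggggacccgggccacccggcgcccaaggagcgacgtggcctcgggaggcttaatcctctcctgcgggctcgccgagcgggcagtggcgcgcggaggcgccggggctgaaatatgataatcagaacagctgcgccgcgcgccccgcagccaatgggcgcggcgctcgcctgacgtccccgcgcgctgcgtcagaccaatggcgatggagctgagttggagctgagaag
The Nkx2-5 match begins at position -18, and the Hand2 matches begin at -235 and -172. The 3 stretches differ in base composition, with 49.2% G and C in Nkx2-5 and Hand2 and 71.2% in Isl1. A match describes letters and shows no binding.

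The check of the labelled genotype came first. Tgif1 stood at 5.50, 6.03 and 6.87 CPM (TMM-scaled counts over library size; lowest, median and highest) in the CDKO-labelled embryos, against 64.2, 61.3, 59.4 and 58.5 CPM in WT embryos 1 to 4. Tgif2 was not lower, at 97.9 ± 11.8 CPM (SD, n = 8) in the CDKO-labelled embryos and 87.3 ± 1.17 CPM (SD, n = 4) in WT. Deletion of part of a gene can leave its transcript, and these counts cover the gene whole, so loss of Tgif2 is known here from the label alone. Tgif2 also has 2 near-identical copies, Tgif2-ps1 and Tgif2-ps2, and 56.7% of its exon bases are shared with 5430405H02Rik on the opposite strand, which had 201 counts over all 12 embryos, so its level is uncertain. The groups differed widely: by edgeR's quasi-likelihood test with Benjamini-Hochberg adjustment over all genes, 51.5% of 14412 genes passed 0.05, 3840 higher and 3583 lower in CDKO-labelled embryos. Once a trend of fold change on GC content and length was taken out, the split became 2900 higher and 4520 lower.

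All 10 cardiac transcription factor genes were higher in the CDKO-labelled embryos and none was lower, where 26.6% of all genes tested were higher and 24.9% lower. Log2 fold changes, CDKO over WT, ran from 0.20 for Isl1 to 1.27 for Hand1, with a median of 0.68, against a median of 0.01 over all genes tested. In 8 of the 10, every CDKO-labelled embryo lay above every WT embryo, as in 17.5% of all genes tested, while 17.1% had every CDKO-labelled embryo below. Of the 10, 7 were higher by at least 1.5-fold, as 11.9% of all genes were. With the GC and length trend removed 8 of the 10 were called, without Gata5 and Isl1, where 20.3% of all genes tested were higher. The same 8 were called without WT embryo 1, where 23.2% were higher. In whole embryos, more cells of a type and more RNA per cell cannot be told apart.

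**Figure D1:**
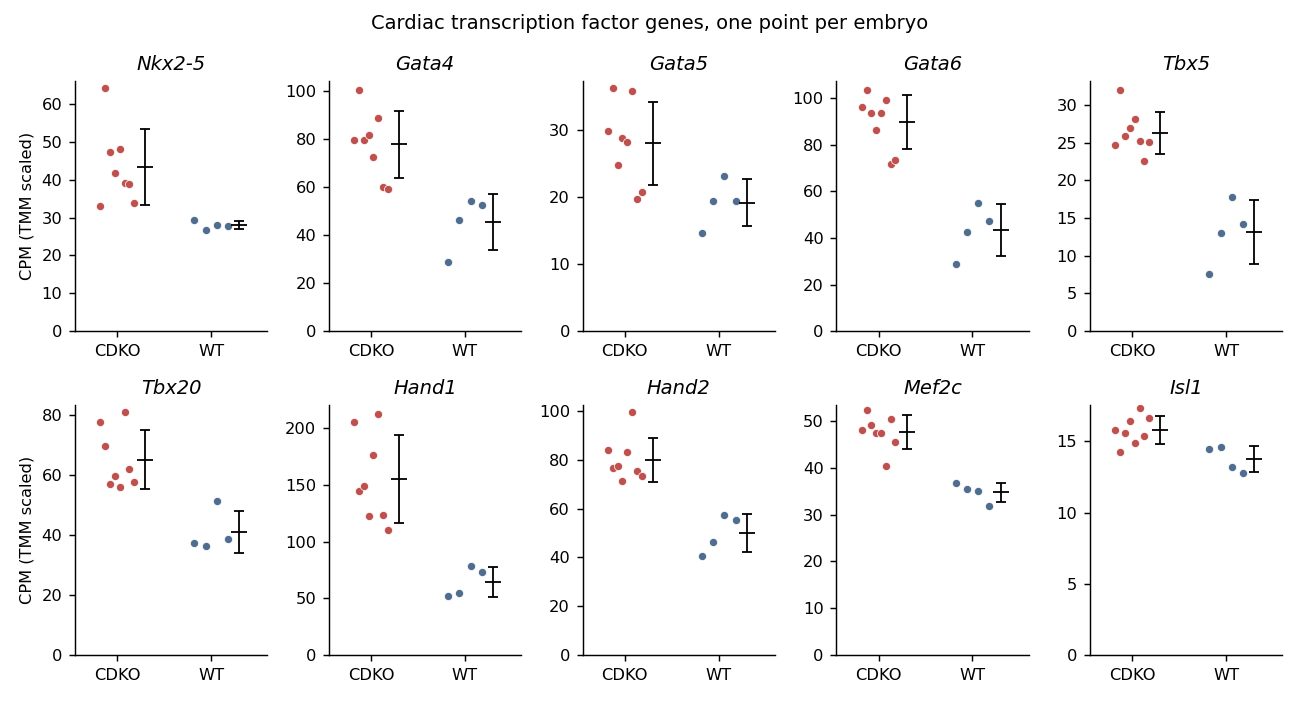
Level of each of the 10 genes in CPM after TMM scaling (y axis, from 0, scale differs by panel) for the 8 CDKO-labelled and 4 WT embryos, 1 point per embryo; the bar and whiskers are the group mean and SD. The groups are separate for all genes except Gata5 and Isl1.

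**Figure D2:**
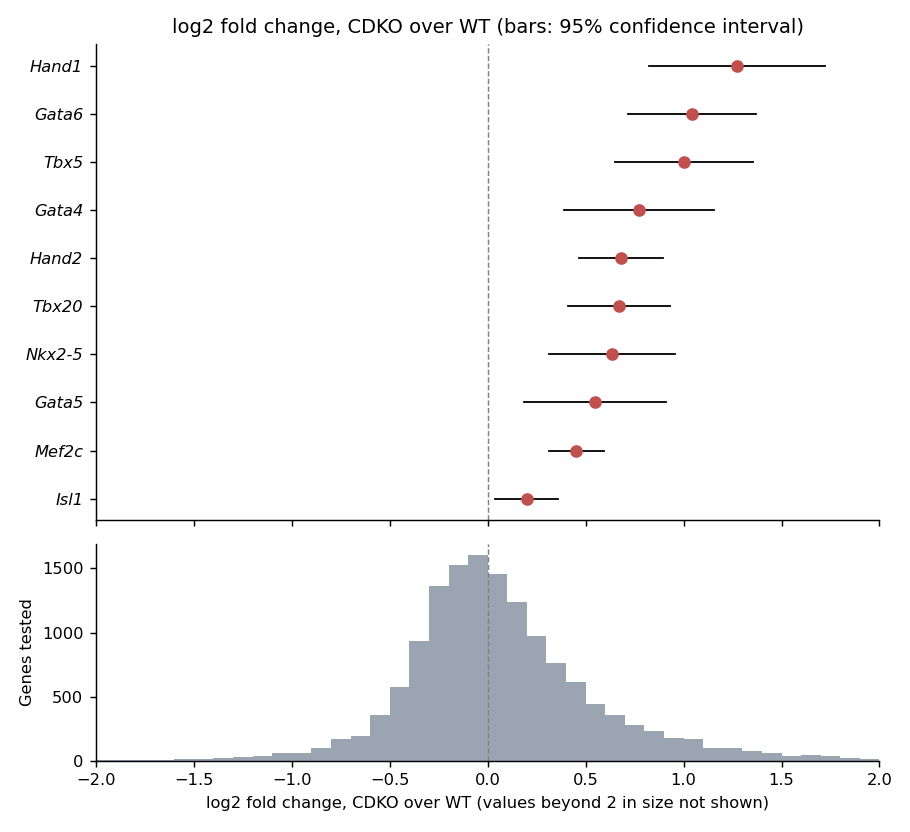
Upper panel, log2 fold change (CDKO over WT, x axis) of each gene with its 95% confidence interval; lower panel, the distribution of log2 fold changes of the 14412 genes tested. All 10 estimates lie right of 0, from 0.20 for Isl1 to 1.27 for Hand1, and the median of all genes is 0.01.

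Hand1 and Hand2 encode related basic helix-loop-helix factors. HAND1 acts in the left ventricle, lateral mesoderm and extraembryonic mesoderm and is required in trophoblast giant cells; HAND2 acts in the second heart field, right ventricle, pharyngeal arches and limb bud. Hand1 stood at 110, 147 and 213 CPM (lowest, median and highest) in CDKO-labelled embryos, against 51.8, 54.4, 78.1 and 72.9 CPM in WT embryos 1 to 4. The lowest CDKO-labelled embryo was above the highest WT embryo, and embryos 1 and 6 were the highest, at 206 and 213 CPM. The log2 fold change of Hand1 was 1.27 (SE 0.21, adjusted p = 0.00031 by edgeR), and 2.84% of genes tested had a larger one. Hand2 stood at 71.4, 76.9 and 99.6 CPM in CDKO-labelled embryos, against 40.6, 46.2, 57.2 and 55.4 CPM in WT. These groups did not overlap either, and the log2 fold change was 0.68 (SE 0.10, adjusted p = 6.18e-05 by edgeR).

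Hand1 was set beside trophoblast and decidua markers because it is used in trophoblast. Summed counts of Prl3d1, Prl2c2, Prl8a2, Gcm1 and Tpbpa, genes of trophoblast and decidua picked from the listed markers after their values were seen, were 755 in CDKO-labelled embryo 6, 1 to 27 in the other 7 and 2 to 11 in WT. Embryo 6 was thus the embryo with both the highest Hand1 and nearly all of these counts, 610 of them from Prl8a2 and 123 from Prl3d1. The sum does not tell trophoblast from decidua. Without it the log2 fold change of Hand1 was 1.20 (adjusted p = 0.000443 by edgeR; 0.000211 to 0.00177 with any 1 embryo left out and at most 0.00305 over all alternatives). The other high embryo, number 1, had 10 such counts. Embryos 1 and 6 also had the highest mean log2 CPM of yolk sac and gut endoderm markers of all embryos, at 5.72 and 5.57. CDKO-labelled embryo 4 came next, at 5.44, with Hand1 at 122 CPM. The part of extraembryonic tissue in the Hand1 level was not tested. Of the 16 listed trophoblast and decidua markers only 7 had enough counts to be tested, and 5 of them did not pass. The 2 higher were the keratin gene Krt8 (0.77, SE 0.19) and Hsd11b2 (0.32, SE 0.08), and none was lower. The share higher, 28.6%, was near the 26.6% of all genes tested.

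The GATA genes encode zinc finger factors of heart, gut and yolk sac endoderm. GATA4 and GATA6 are both needed for heart formation, and GATA5 is prominent in endocardium. Gata6 stood at 71.7, 93.5 and 104 CPM (lowest, median and highest) in CDKO-labelled embryos, against 28.7, 42.7, 55.2 and 47.4 CPM in WT embryos 1 to 4. Gata4 stood at 59.1, 79.5 and 101 CPM in CDKO-labelled embryos, against 28.9, 46.4, 54.1 and 52.7 CPM in WT. The groups were separate for both genes, with log2 fold changes of 1.04 (SE 0.15, adjusted p = 8.76e-05) for Gata6 and 0.77 (SE 0.18, adjusted p = 0.00283) for Gata4 by edgeR. Gata5 stood at 19.7, 28.5 and 36.2 CPM in CDKO-labelled embryos, against 14.7, 19.3, 23.2 and 19.4 CPM in WT. Its groups overlapped, with 6 of 8 CDKO-labelled embryos above every WT embryo, and its log2 fold change was 0.55 (SE 0.17, adjusted p = 0.0149 by edgeR). The Gata5 call was lost without WT embryo 1 (0.44, adjusted p = 0.0596), the lowest WT embryo for all 3 GATA genes, and with the GC and length trend removed (0.37, adjusted p = 0.0838); adjusted p reached 0.0838 at most over all alternatives.

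Markers of yolk sac and gut endoderm, the other main site of GATA expression, did not move as a group with genotype. Of 25 tested, 1 was higher and 3 lower, where 26.6% of all genes tested were higher and 24.9% lower. The 3 lower genes had the lowest p of the list, with log2 fold changes of -2.88, -0.64 and -0.27. In each of them, every CDKO-labelled embryo lay below every WT embryo. The 1 that was higher, the gut hormone gene Pyy (1.12, SE 0.40), was among the rarest. No gene of the list was higher without CDKO-labelled embryo 2 or without any 1 of the 4 WT embryos, and 2 were without CDKO-labelled embryo 8. Their summed level was 1209 to 4330 CPM in CDKO-labelled embryos and 1073 to 3032 CPM in WT. Their mean log2 CPM was 4.35 in WT embryo 1, against 5.12 to 5.42 in the other WT embryos, so that embryo was lowest in both. CDKO-labelled embryos 7 and 8, the lowest of their group in Gata4, Gata5 and Gata6, stood at 4.65 and 4.18, but CDKO-labelled embryo 2, the highest in all 3 GATA genes, stood at 4.38. The part of endoderm content in the GATA levels was not tested.

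Tbx5 and Tbx20 encode T-box factors. TBX5 acts in the first heart field, atria and forelimb bud, and TBX20 in heart chambers, where it restrains Tbx2. Tbx5 stood at 22.6, 25.5 and 31.9 CPM (lowest, median and highest) in CDKO-labelled embryos, against 7.53, 13.1, 17.7 and 14.2 CPM in WT embryos 1 to 4. Every CDKO-labelled embryo was above the highest WT embryo, and WT embryo 1 stood well below the other WT embryos. The log2 fold change was 1.0 (SE 0.16, adjusted p = 0.000169 by edgeR), and 0.81 without WT embryo 1. Tbx20 stood at 56.2, 61.0 and 81.2 CPM in CDKO-labelled embryos, against 37.3, 36.5, 51.3 and 38.8 CPM in WT. Its groups were separate, with WT embryo 3 far above the other WT embryos, and its log2 fold change was 0.67 (SE 0.12, adjusted p = 0.000397 by edgeR).

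Nkx2-5 encodes the NK homeodomain factor that marks cardiac progenitors from early on, and Mef2c a MADS-box factor of heart, skeletal muscle, endothelium and neural crest. Nkx2-5 stood at 33.1, 40.5 and 64.2 CPM (lowest, median and highest) in CDKO-labelled embryos, against 29.3, 26.7, 28.0 and 27.8 CPM in WT embryos 1 to 4. The WT embryos lay close together, with a coefficient of variation of 3.77%, while the CDKO-labelled embryos spread over 23.2%, with embryo 2 at the top and embryo 1 at the bottom. The log2 fold change of Nkx2-5 was 0.63 (SE 0.15, adjusted p = 0.003 by edgeR), and was 0.41 (adjusted p = 0.0325) with the GC and length trend removed. Mef2c stood at 40.5, 47.8 and 52.5 CPM in CDKO-labelled embryos, against 36.7, 35.6, 35.0 and 31.95 CPM in WT. Its groups were separate, and with a small spread in both its log2 fold change of 0.45 (SE 0.07, adjusted p = 5.03e-05 by edgeR) had the lowest p of the 10.

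Isl1, which encodes a LIM homeodomain factor of second heart field progenitors, motor neurons and sensory ganglia, differed least. It stood at 14.2, 15.7 and 17.4 CPM (lowest, median and highest) in CDKO-labelled embryos, against 14.5, 14.6, 13.2 and 12.8 CPM in WT embryos 1 to 4. CDKO-labelled embryo 2 lay within the WT range and the other 7 lay above it. The log2 fold change was 0.20 (SE 0.08, 95% interval 0.04 to 0.36, adjusted p = 0.0401 by edgeR). That call was lost in 9 of 20 alternatives, among them without CDKO-labelled embryo 1, 4, 6 or 8 and without WT embryo 1, 3 or 4, with adjusted p up to 0.132; the estimate stayed between 0.16 and 0.25. Of 16 markers of neurons, motor neurons and ganglia, 11 were tested, 3 were lower and none higher. The share lower, 27.3%, was near the 24.9% of all genes tested, of which 26.6% were higher. The summed level of all 16 was 57.0 to 100.3 CPM in CDKO-labelled embryos and 79.3 to 100.9 CPM in WT. The 3 lower genes were Pou4f1, Mnx1 and Tubb3 (-0.44, SE 0.15). Pou4f1 stood at 2.28 ± 0.41 CPM (SD) in CDKO-labelled embryos and 3.73 ± 0.40 CPM in WT. Mnx1 stood at 2.43 ± 0.93 CPM in CDKO-labelled embryos and 4.86 ± 0.29 CPM in WT. In both, every CDKO-labelled embryo lay below every WT embryo. The other 8 did not pass. Lhx3 and Lhx4, markers of motor neurons, were too rare to be tested, at 52 and 46 counts over all 12 embryos. The part of neurons in the Isl1 level was not tested.

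**Figure D3:**
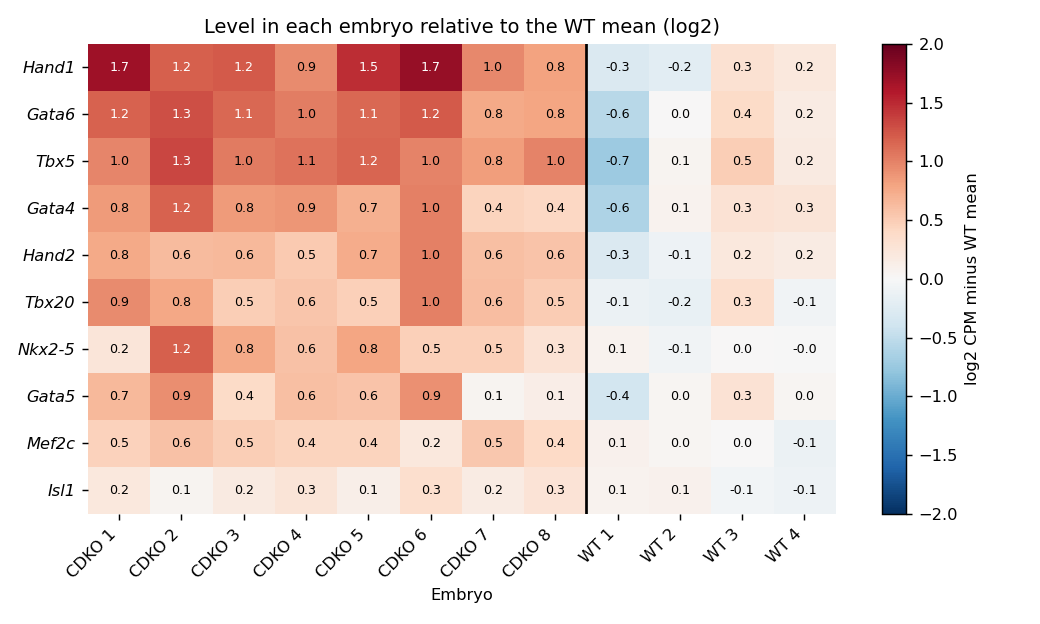
Level of each gene (rows) in each embryo (columns, the 8 CDKO-labelled embryos left of the line and the 4 WT embryos right of it) as log2 CPM minus the WT mean. All cells of the CDKO-labelled embryos are above 0, from 0.05 for Isl1 in embryo 2 to 1.75 for Hand1 in embryo 6.

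The embryos did not differ by one factor common to all members. CDKO-labelled embryo 2 had the highest level of its group in 6 genes and the lowest in 1, Isl1, and embryo 6 had the highest in the other 4 and the lowest in 1, Mef2c. Averaged over the 10 genes, levels lay 0.52 (embryo 8) to 0.92 (embryo 2) above the WT mean on the log2 scale among CDKO-labelled embryos, and from -0.27 (embryo 1) to 0.23 (embryo 3) among WT embryos. WT embryo 3 was the highest of its group in 7 of the 10 genes and WT embryo 1 the lowest in 6. With WT embryo 1 and CDKO-labelled embryo 2 both left out, 9 of the 10 genes were called higher and none lower. In that setting 23.1% of all genes tested were higher.

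Because the members differed by unequal amounts, ratios were compared within embryos, where no scaling between libraries enters. They were taken between paralogs and between Tbx5 and Isl1, genes of the first and second heart field that are also used outside the heart. The pairs were chosen with earlier results of these data known, so their p-values are no independent test of the unequal amounts. There were 6 pairs, each tested by a two-sided exact permutation test of the 8 CDKO-labelled and 4 WT embryos, whose smallest possible p is 0.00404, with Benjamini-Hochberg adjustment over the 6. The ratio of Hand1 to Hand2 was higher in CDKO-labelled embryos, at a mean log2 ratio of 0.93 ± 0.23 (SD, n = 8), against 0.36 ± 0.09 (SD, n = 4) in WT, a difference of 0.57 (exact permutation p = 0.00404, adjusted p = 0.00606). In counts, the mean ratio was 1.90 Hand1 to 1 Hand2 in CDKO-labelled embryos and 1.28 to 1 in WT. The groups did not overlap, and the trend on GC content and length was nearly equal for both genes, at 0.21 each.

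The GATA genes also differed in proportion. Gata5 to Gata6 had a mean log2 ratio of -1.70 ± 0.16 in CDKO-labelled embryos and -1.16 ± 0.14 in WT, a difference of -0.54 (exact permutation, adjusted p = 0.00606). Gata4 to Gata6 stood at -0.21 ± 0.11 in CDKO-labelled embryos and 0.06 ± 0.09 in WT, a difference of -0.28 (exact permutation, adjusted p = 0.00606). In both, no embryo of one group lay in the range of the other, so Gata6 took a larger share of the GATA counts in every CDKO-labelled embryo. The ratio of Gata4 to Gata5 was higher by 0.26 (exact permutation, adjusted p = 0.0242), with overlapping groups, and this call was lost without WT embryo 1 (0.18, adjusted p = 0.0727), 2 (0.27, 0.0582) or 3 (0.26, 0.0727).

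The ratio of Tbx5, a gene of the first heart field, to Isl1, a gene of the second, stood at 0.73 ± 0.21 in CDKO-labelled embryos and -0.13 ± 0.59 in WT on the log2 scale, a difference of 0.86 (exact permutation, adjusted p = 0.00606). The lowest CDKO-labelled embryo was at 0.54 and the highest WT embryo at 0.43. WT embryo 1, at -0.94, carried part of this, and the difference was 0.59 without it and 0.53 with CDKO-labelled embryo 2 left out too. Tbx5 to Tbx20 differed by 0.39 and did not pass (exact permutation, adjusted p = 0.0889), with overlapping groups and WT embryo 1 again the lowest; without that embryo the difference was 0.18.

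**Figure D4:**
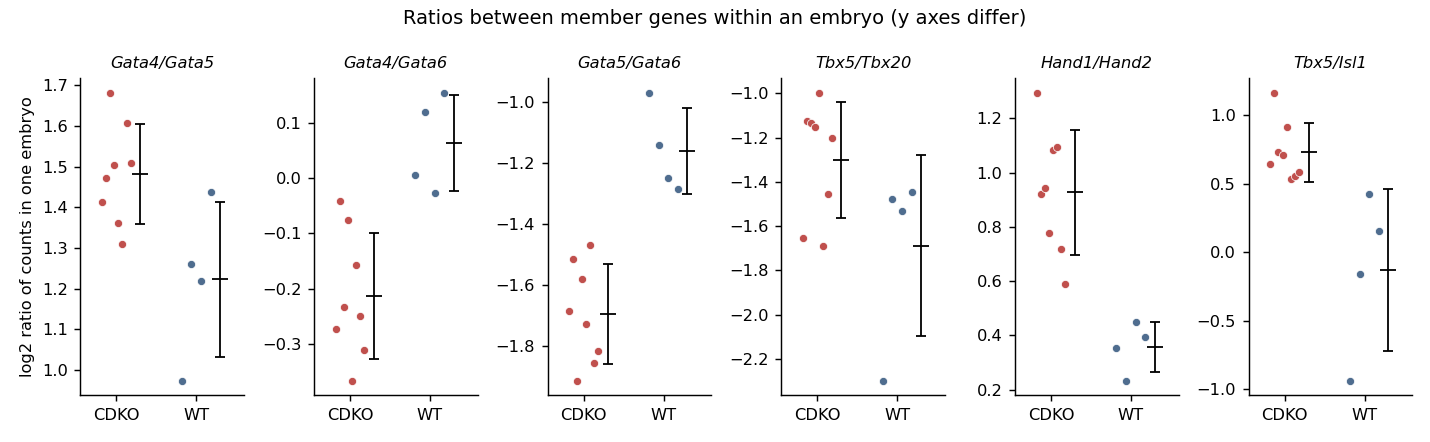
Log2 ratio of the counts of 2 member genes in the same embryo (y axis, scale differs by panel) for 8 CDKO-labelled and 4 WT embryos, with mean and SD. Groups are separate for Gata4/Gata6, Gata5/Gata6, Hand1/Hand2 and Tbx5/Isl1, and overlap for Gata4/Gata5 and Tbx5/Tbx20.

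Levels of different genes were compared as CPM per kilobase of exon. In CDKO-labelled embryos the order was Hand1 (77.9 ± 19.4), Hand2 (34.05 ± 3.82), Nkx2-5 (25.2 ± 5.84), Gata4 (19.9 ± 3.56), Gata6 (13.8 ± 1.80), Gata5 (8.55 ± 1.88), Tbx5 (5.63 ± 0.60), Tbx20 (5.43 ± 0.82), Isl1 (3.99 ± 0.25) and Mef2c (3.03 ± 0.23). Neighbours within SD of each other were Hand2 and Nkx2-5, Nkx2-5 and Gata4, and Tbx5 and Tbx20. In WT embryos Hand1 (32.2 ± 6.59), Hand2 (21.2 ± 3.34), Nkx2-5 (16.2 ± 0.61), Gata4 (11.7 ± 2.98), Gata6 (6.68 ± 1.71) and Gata5 (5.85 ± 1.07) led in the same order. Isl1 (3.48 ± 0.24), Tbx20 (3.41 ± 0.58), Tbx5 (2.81 ± 0.91) and Mef2c (2.22 ± 0.13) followed, and of the neighbours in WT, Gata6 and Gata5, Isl1 and Tbx20, Tbx20 and Tbx5, and Tbx5 and Mef2c were within SD of each other. Tbx5 thus stood above Isl1 per kilobase in CDKO-labelled embryos. In WT the mean of Tbx5 was below that of Isl1, but the 2 genes were within SD of each other. With the longest transcript as the length, 5 of 10 genes kept their rank in CDKO-labelled embryos, where Gata6 then stood above Gata4, and 6 of 10 in WT. Isl1 then stood above Tbx5 in WT but last in CDKO-labelled embryos.

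Patterns over the 12 embryos were compared as the mean absolute difference of log2 CPM centred on each gene's own mean. The closest members were Gata6 and Tbx5 (0.11), then Tbx20 and Hand2 (0.12) and Gata4 and Gata5 (0.14). The most distant were Hand1 and Isl1 (0.50). Among 12385 genes searched, those near to Mef2c included Eif1b and Agfg2 (0.06 each; median of all genes 0.26). The nearest to Hand2 were Prr5 (0.07), the imprinted RNA gene H19 and Ralb (0.08 each; median 0.34), and the nearest to Gata6 were Ttc7 (0.10), Dlgap3 and the junction gene Jup, plakoglobin (0.11 each; median 0.50).

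Other regulators of heart development were higher more often than lower. Of 42 tested, 23 were higher, 4 lower and 15 did not pass, with a median log2 fold change of 0.27. Over all genes tested, 26.6% were higher and 24.9% lower. Mef2d, a paralog of Mef2c, rose by 0.66 (SE 0.08), the epicardial gene Tcf21 by 0.78 (SE 0.09) and Hopx, a cofactor of differentiating muscle, by 0.57 (SE 0.10), each in 8 of 8 CDKO-labelled embryos. With the GC and length trend removed 15 of the list were higher, with a median of 0.10, where 20.3% of all genes tested were higher. The number lower in the list was 2 without CDKO-labelled embryo 3 and 1 without WT embryo 4.

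Contractile and calcium handling genes, the targets of these factors, had the larger share. Of 31 tested, 21 were higher, none was lower and 10 did not pass, with a median of 0.63. Over all genes tested, 26.6% were higher and 24.9% lower. In the list, 1 gene was lower without CDKO-labelled embryo 7 or 8, by DESeq2, by limma-voom and with the GC and length trend removed. Tnni1, slow troponin I, stood at 183 ± 36.6 CPM in CDKO-labelled embryos and 62.7 ± 5.36 CPM in WT (log2 fold change 1.55, SE 0.14), and Des (0.94, SE 0.13), the Z-disc gene Ldb3 (0.83, SE 0.12) and the atrial myosin light chain gene Myl4 (0.88, SE 0.14) were higher too. Their mean log2 CPM was 5.49 to 6.19 in CDKO-labelled embryos and 5.16 to 5.51 in WT, where WT embryo 1 was the highest and lay above CDKO-labelled embryo 6. The muscle genes and the transcription factors therefore did not all order the embryos alike. WT embryo 1 was lowest of WT in 6 of the 10 factors but highest in Nkx2-5 (29.3 CPM) and Mef2c (36.7 CPM). CDKO-labelled embryo 2 was the highest of its group in the muscle genes and in 6 factors. CDKO-labelled embryo 6 was the lowest of its group in the muscle genes and in Mef2c, but the highest in 4 factors. Set against the mean log2 CPM of the muscle genes in each embryo (with the WT mean at 0), the CDKO-labelled and WT embryos overlapped for all 10 genes. Hand1 lay at 0.72 ± 0.54 in CDKO-labelled embryos, with a WT SD of 0.39, Gata6 at 0.53 ± 0.36 with a WT SD of 0.52, and Tbx5 at 0.52 ± 0.24 with a WT SD of 0.64. WT embryo 1 carried much of this, at -0.94 for Tbx5 and -0.77 for Gata6. Without it, an alternative chosen after seeing the data, the differences were 0.55 for Hand1, 0.28 for Gata6 and 0.20 for Tbx5. Nkx2-5 lay at 0.07 ± 0.26, Mef2c at -0.09 ± 0.18 and Isl1 at -0.34 ± 0.32 in CDKO-labelled embryos, against WT SDs of 0.11, 0.11 and 0.15.

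Signals that act on the heart fields were called about as often as genes at large. Of 25 tested, 7 were higher and 6 lower, with a median of -0.09, where 26.6% of all genes tested were higher and 24.9% lower. Wnt11 (1.16, SE 0.14), which promotes cardiac differentiation, and Bmp4 (0.59, SE 0.11) were higher. The Nodal co-receptor gene Tdgf1 (-1.19, SE 0.22) and Cer1 (-2.43, SE 0.44), which encodes a secreted antagonist of Nodal and BMP, were lower.

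Some genes of neighbouring mesoderm also differed. Among all genes tested, 26.6% were higher and 24.9% lower. Of 17 lateral mesoderm and limb field genes, 8 were higher and 1 lower (median 0.33). The lowest p were for Dlk1 (1.37, SE 0.11), Prrx2 (0.58, SE 0.10) and Hoxb6 (0.52, SE 0.11). The summed level of the list was 1358 to 1652 CPM in CDKO-labelled embryos and 865 to 1077 CPM in WT. Dlk1 held a large part of it, at a mean of 624 CPM in CDKO-labelled embryos and 242 CPM in WT. The mean log2 CPM of the list overlapped, at 5.11 to 5.47 in CDKO-labelled embryos and 4.92 to 5.20 in WT. Without WT embryo 1 and CDKO-labelled embryo 2, 5 genes of this list were higher, where 23.1% of all genes tested were. Without CDKO-labelled embryo 6 or 8, 2 genes of this list were lower. Of 24 endothelial and endocardial genes, 11 were higher and 3 lower (median 0.27), among them the receptor gene Tie1 (0.60, SE 0.10). Their summed level was 935 to 1262 CPM in CDKO-labelled embryos, highest in embryo 6, and 781 to 916 CPM in WT. Their mean log2 CPM overlapped, at 4.84 to 5.30 in CDKO-labelled embryos and 4.64 to 4.87 in WT. With the GC and length trend removed 6 were higher, where 20.3% of all genes tested were. Tbx5, Hand1, Hand2, Tbx20 and Mef2c are used in these tissues too, and their part in the levels of the 10 genes was not tested.

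**Figure D5:**
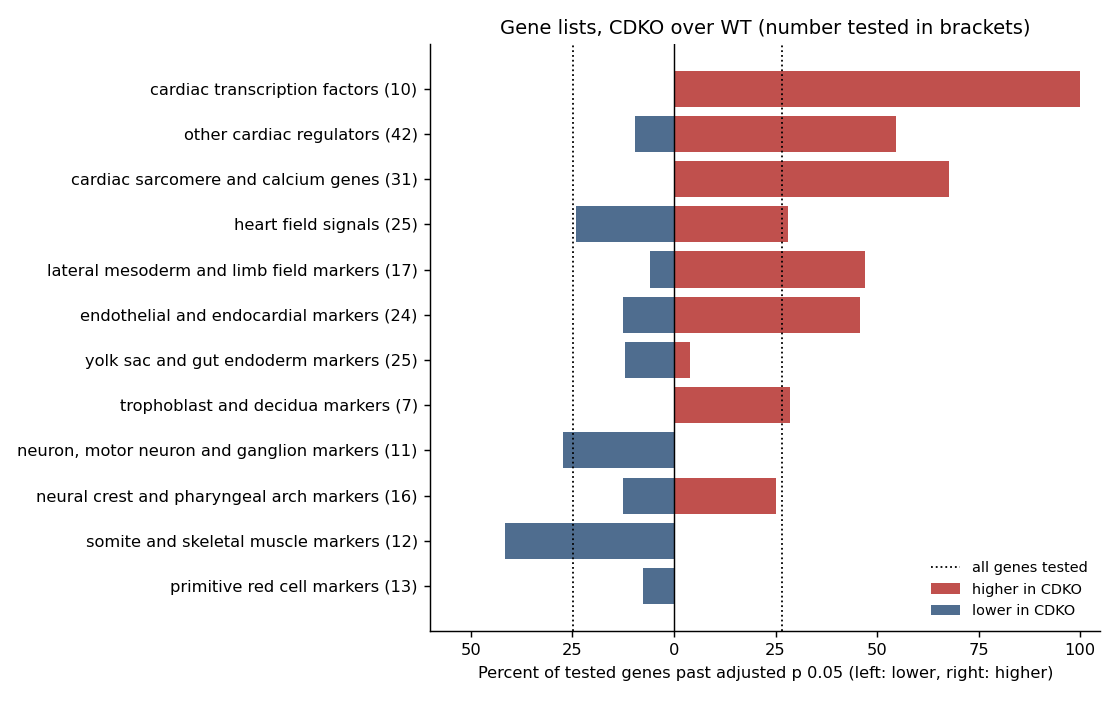
Percent of the tested genes in each list past adjusted p 0.05 (x axis; right of 0 higher and left of 0 lower in CDKO-labelled embryos), with the number tested in brackets; dotted lines mark 26.6% higher and 24.9% lower among all genes tested. The 10 cardiac transcription factors reach 100%, and of the other lists the contractile list has the largest share higher.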

How the data were processed

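The deposited table holds the authors' raw counts per gene symbol, with a column for each embryo. The submitters' processing notes name build mm9 and, as tools, STAR, featureCounts, FastQC and DESeq2; their versions, the annotation and the strand setting are not given here. Without strand, antisense reads cannot be told apart: antisense transcripts share 19.6% of the exon bases of Hand2 (Hand2os1), 7.87% of Gata5 and 1.43% of Gata6. Of the 10 members, none has a near-identical copy (at least 200 bases at 95% identity) in GENCODE M21.

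Groups follow the genotype label; replicate numbers only name embryos. Within-group pairs differed beyond sampling noise (lowest chi-square per degree of freedom 3.89). edgeR 4.0.16 in R 4.3.3 was used with TMM scaling, filterByExpr and robust dispersions, over 14412 genes. The SE is the log2 fold change divided by the square root of F. Levels are CPM from these counts, with exon lengths from GENCODE M21. Lists are described by counts and medians, without a set test; they share some genes. The script was tested on simulated data. P-values rest on the spread between single embryos, whose litters are unknown.

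The members, lists, pairs and alternatives were chosen with earlier results of these data known; the GATA, NKX2-5 and T-box motifs were added later. Named genes are the members, Tgif1, Tgif2, up to 4 genes of lowest p per list, and the 3 genes nearest in pattern to the 3 members of lowest p; some of these are not reported here. Markers of other tissues named with counts were chosen after their values were seen. Alternatives were upper-quartile or RLE scaling, limma-voom (limma 3.58.1), DESeq2 1.42.0, no count filter, a mean of at least 5 CPM, each embryo left out, WT embryo 1 and CDKO-labelled embryo 2 left out, removal of a GC and length trend (known for 99.1% of tested genes), other pseudocounts for ratios and another gene length.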

Additional observations from a re-analysis of the deposited data

Results flagged for a closer look

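In 4 of 54 groups of embryos, taken over member levels, list scores and ratios, 1 embryo lay far from the rest of its group, where the limit used flags about 1 in 20 by chance; the groups share embryos. Tbx20 in WT embryo 3 was 51.3 CPM, and the rest of WT lay at 36.5 to 38.8 CPM. Hand2 in CDKO-labelled embryo 6 stood at 99.6 CPM, against 71.4 to 83.8 CPM in the others of its group. The same embryo had a mean log2 CPM of endothelial and endocardial genes of 5.30, against 4.84 to 4.97 in the others. The log2 ratio of Tbx5 to Tbx20 was -2.30 in WT embryo 1, against -1.53 to -1.45 in the other WT embryos.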

How the results depend on the processing

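Over 20 alternatives, Nkx2-5, Gata4, Gata6, Tbx5, Tbx20, Hand1, Hand2 and Mef2c kept their direction and their call in all; Gata5 lost its call in 3 and Isl1 in 9, with no change of direction. The number of members higher was 8 in 2 alternatives, 9 in 8 and 10 in 10, where 20% to 28.8% of all genes tested were higher. Leaving out 1 embryo at a time gave 8 to 10. The Gata4 to Gata5 ratio difference lay between 0.18 and 0.33 with 1 embryo left out, losing its call without WT embryo 1, 2 or 3, and was 0.18 with WT embryo 1 and CDKO-labelled embryo 2 left out (adjusted p = 0.1); fewer embryos also raise the smallest p. The Tbx5 to Tbx20 difference lay between 0.18 and 0.47 with 1 embryo left out and was 0.16 with WT embryo 1 and CDKO-labelled embryo 2 left out (adjusted p = 0.35), passing only without CDKO-labelled embryo 1 (0.44) or 6 (0.44), both at adjusted p = 0.0485. The other ratios kept their calls. With the longest transcript as length, 5 members kept their rank per kilobase in CDKO-labelled embryos and 6 in WT. The cause of the GC and length trend was not tested, and it cannot be told apart from genotype. No paired analysis was possible because the labels give no replicate numbers shared between the groups.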

Other observations

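Of the marker lists of somites, neural crest and red cells, only the neural crest list had genes higher, and differences between lists were not tested. Among all genes tested, 26.6% were higher and 24.9% lower. Of 12 somite and skeletal muscle genes tested, 5 were lower and none higher in CDKO-labelled embryos, with a median log2 fold change of -0.43: the somite genes Tcf15 (-0.74, SE 0.16) and Uncx (-1.29, SE 0.37), the progenitor gene Pax3 (-0.33, SE 0.10) and the Notch ligand gene Dll3 (-1.57, SE 0.44) were among them. Without CDKO-labelled embryo 4 or 6, 1 gene of this list was higher. Myog, Myod1 and Myf6 had 84, 17 and 8 counts over all 12 embryos. Of 16 neural crest and pharyngeal arch genes 4 were higher and 2 lower, with Snai2 at 0.91 (SE 0.11) and Ets1 at -0.40 (SE 0.06). Of 13 primitive red cell genes 12 had a log2 fold change below 0, with a median of -1.02, and by edgeR 1 was lower, Tal1 (-0.67, SE 0.16), and none higher. The number lower was 4 without CDKO-labelled embryo 1, 3 without embryo 8, 3 with the GC and length trend removed, 2 by DESeq2 and 7 by limma-voom. Their mean log2 CPM ran from 0.20 in CDKO-labelled embryo 2 to 4.15 in embryo 8, against 3.60 to 4.19 in WT. CDKO-labelled embryo 2, the lowest in red cell genes, was the highest of the 12 in Nkx2-5, Gata4, Gata5, Gata6, Tbx5 and Mef2c.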
